A study of Homo sapiens with 4 samples.

Results

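Transcription elongation factors are the proteins that hold, release, speed up or clear the way for RNA polymerase II (Pol II) once it has started a transcript. The 33 genes described here encode subunits of DSIF, NELF, the 7SK snRNP, the super elongation complex, the PAF1 complex, TFIIS, Elongin, FACT, SPT6 with IWS1, and SETD2. They were found by gene symbol, after the Ensembl identifiers of the count tables had been paired with symbols, among 62700 genes in all. The rule uses symbols alone, but the list was drawn up with earlier results of these data known.

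Poly(A) RNA was sequenced from HEK293T, a human embryonic kidney cell line, to see which transcripts depend on Thr4 in the C-terminal domain (CTD) of Pol II. The CTD is the tail of heptad repeats on RPB1, the largest Pol II subunit. Cells of both groups were transiently transfected with an RPB1 construct that resists α-amanitin, a toxin that removes endogenous RPB1. The construct of the WT group carried the wild-type CTD, and that of the T4A group had alanine in place of threonine at position 4 of its repeats. Cells of both groups received 2.5 µg/ml of the toxin from 1 day after transfection, for 48 hours. Each group had 2 libraries, 4 in all. The study calls the replicates biological, while the labels do not state separate cultures, and the p-values cover the spread between these libraries only, which may be technical in part. Cells that lost the construct, or that kept endogenous RPB1, cannot be told apart from the others in bulk RNA, and neither can fewer cells of one kind from less RNA per cell.

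T4A replicates 1 and 2 held 23465029 and 19257217 counts in total, and WT replicates 1 and 2 held 33063535 and 24695291. Levels are counts per 1000000 counts of a library (CPM), scaled by the TMM method, so every rise or fall is relative to the other transcripts. POLR2A, the gene of RPB1, reached 5378 and 5477 CPM in T4A and 3772 and 2764 CPM in WT, a log2 fold change of 0.73 ± 0.08 (SE; edgeR adjusted p = 7.23e-07). These counts join the construct and the endogenous gene, so they do not check the label. All 8 markers fixed for the HEK293 line passed the filter on low counts and summed to 184 to 191 CPM in T4A and 209 to 210 CPM in WT. The 5 blood markers summed to 1.63 to 3.46 CPM in T4A and 2.0 to 2.34 CPM in WT, with HBB at 0 in every library. The 2 endothelial markers found summed to at most 0.195 CPM. Fibroblast markers summed to 30.7 to 31.8 CPM in T4A and 34.8 to 37.0 CPM in WT with COL1A2 at 0, and proximal tubule markers to 8.11 to 9.14 and 11.5 to 12.6 CPM. Hepatocyte markers summed to 1.23 to 3.46 CPM in T4A and 1.16 to 1.68 CPM in WT.

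Soon after initiation Pol II is held near the promoter by DSIF and NELF. The kinase P-TEFb, kept inactive in the 7SK snRNP and brought to genes by the super elongation complex, phosphorylates DSIF, NELF and the CTD, and the polymerase is released. In the gene body the PAF1 complex and SPT6 travel with it, TFIIS and Elongin help it past pauses and arrest, and FACT and SPT6 take nucleosomes apart ahead of it and rebuild them behind. SETD2 binds the phosphorylated CTD and marks the transcribed chromatin with trimethylation of histone H3 lysine 36. Several of these factors touch the CTD directly, which is why their own transcripts are of interest in cells with a changed CTD.

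Of the 33 genes, 30 passed the filter on low counts and were tested with edgeR's quasi-likelihood test. A gene is called here when its p-value, adjusted by Benjamini-Hochberg over all 18139 genes tested, lies under 0.05. By that rule 6 of the 30 were higher in T4A cells (ELOB, TCEA2, ELOC, MLLT1, NELFB and SKIC8), 5 were lower (AFF4, SUPT16H, CTR9, SUPT6H and TCEA1) and 19 were not called. Calls were common in the whole table, with 23.6% of all genes called in either direction, 10.7% called higher and 13.0% called lower. The 2 T4A libraries lay wholly above or below the 2 WT libraries for 21 of the 30 elongation factors and for 59.0% of all genes. AFF4 alone of the 30 was called with a change over 1.5-fold, against 7.41% of all genes. The median log2 fold change (T4A over WT) was −0.11 for the 30 genes and −0.01 for all genes, and it was negative in 18 and positive in 12 of the 30. Scaling moved the balance of all calls: 45.1% of them were higher with TMM, 61.0% with upper quartile scaling and 31.2% with library totals, and 55.7% once the trend with transcript length was removed. Among the elongation factors, upper quartile scaling gave 7 higher and 4 lower, library totals gave 4 higher and 8 lower, and removal of the length trend gave 6 higher and 4 lower.

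The calls followed the level of the transcript. All 11 fell among the 16 elongation factors that averaged 20 CPM or more, and their standard errors ran from 0.04 to 0.11 on the log2 scale. None of the 14 below that level was called by edgeR, nor by DESeq2 or limma-voom, and their standard errors ran from 0.12 to 0.70. AFF1 and EAF1 alone among the 14 had an unadjusted edgeR p under 0.05. In the whole table, 55.0% of genes at or above 20 CPM were called by the edgeR test and 11.2% of those below it. The 11 calls among 16 elongation factors at that level stand beside the 55.0%, and so few genes show nothing particular to them. The 20 CPM boundary was chosen after the values were seen.

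**Figure D1:**
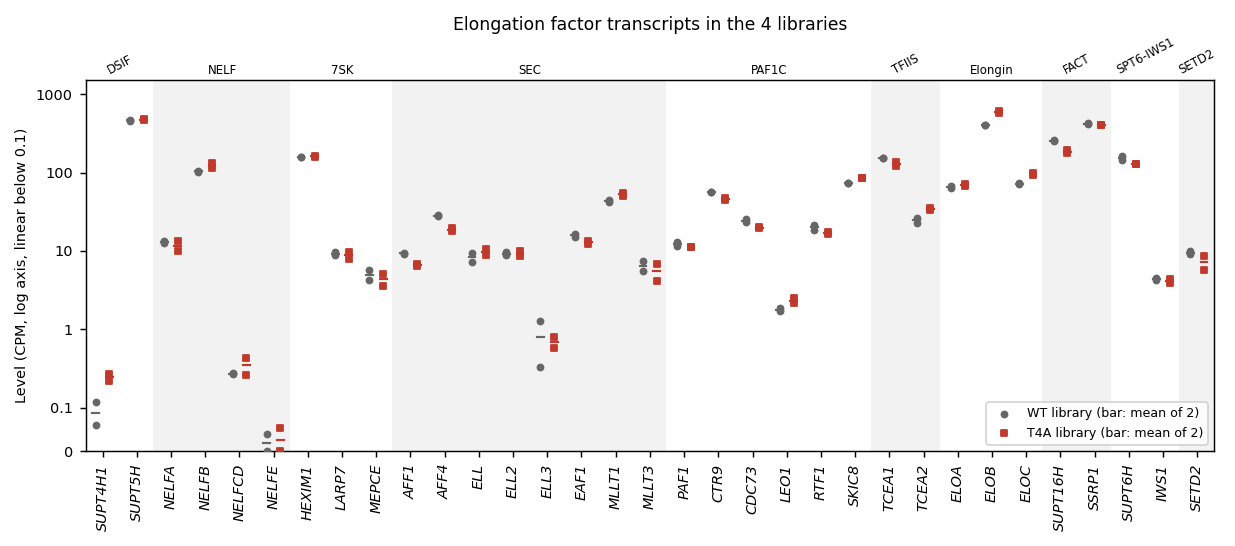
Level of each of the 33 elongation factor genes in the 4 libraries, in CPM on a log axis that is linear below 0.1, grouped by complex, with circles for WT libraries, squares for T4A libraries and a bar at each mean. As counted, levels start at NELFE, with 0 or 1 count per library. The highest mean was that of SUPT5H in WT, at 464 CPM, and that of ELOB in T4A, at 594 CPM. For most genes the groups lie close together.

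Elongin held the largest rise of all 30. Elongin B (ELOB, ENSG00000103363.16, chromosome 16, 2771414 to 2777280 on GRCh38) is a ubiquitin-like subunit that also serves cullin ubiquitin ligases. It stood at 606 and 581 CPM in T4A replicates 1 and 2 and at 408 and 407 CPM in WT replicates 1 and 2, an order kept for every gene below. Both T4A libraries were above both WT libraries, at 594 ± 18.0 against 408 ± 0.570 CPM (SD, n = 2). The log2 fold change was 0.54 ± 0.04 (SE; edgeR adjusted p = 3.54e-09), or 1.46-fold. Elongin C (ELOC, ENSG00000154582.18, chromosome 8, 73945119 to 73972287), its partner in the same ligases, stood at 97.7 and 94.0 CPM in T4A and at 73.4 and 70.8 CPM in WT. The T4A libraries were again the higher ones, with a log2 fold change of 0.41 ± 0.06 (edgeR adjusted p = 7.97e-05). ELOA, the large subunit that activates elongation, gave 71.5 and 67.8 CPM in T4A and 67.7 and 63.5 CPM in WT. It was not called, with a log2 fold change of 0.09 and a 95% interval from −0.06 to 0.24. Elongin C has many named pseudogene copies, whose counts together came to 1.79% of those of the gene itself, and 7.12% of the annotated exonic bases of ELOB lie within those of a neighbouring gene.

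The histone chaperone FACT held the most strongly supported fall. FACT is a dimer of SPT16, encoded by SUPT16H, and SSRP1. SUPT16H (ENSG00000092201.10, chromosome 14, 21351476 to 21384019) gave 179 and 192 CPM in T4A and 249.9 and 258 CPM in WT. Both T4A libraries were below both WT libraries, at 186 ± 9.58 against 254 ± 5.73 CPM (SD, n = 2), with a log2 fold change of −0.45 ± 0.05 (SE; edgeR adjusted p = 9.70e-07). SSRP1 gave 403 and 405 CPM in T4A and 423 and 412 CPM in WT. Its groups did not overlap, but the distance was small, with a log2 fold change of −0.05 and a 95% interval from −0.13 to 0.03, and it was not called.

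The letters upstream of these genes are shown for the largest rise (ELOB), the largest fall (AFF4, described with the super elongation complex) and both subunits of FACT, one called and one not. Each line is the 100 bases before the RefSeq transcription start on GRCh38.p14, read 5′ to 3′ on the strand of the gene, which is the minus strand in all 4. Capitals mark GC boxes (GGGCGG or its reverse complement, a binding sequence of SP1-like factors) and ETS motifs (CCGGAA or its reverse complement). The positions are chr16:2777281-2777380 for ELOB, chr14:21384020-21384119 for SUPT16H, chr11:57335893-57335992 for SSRP1 and chr5:132963635-132963734 for AFF4.
ELOB: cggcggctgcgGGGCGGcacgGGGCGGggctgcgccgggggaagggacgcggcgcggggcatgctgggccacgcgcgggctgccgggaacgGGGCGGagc
SUPT16H: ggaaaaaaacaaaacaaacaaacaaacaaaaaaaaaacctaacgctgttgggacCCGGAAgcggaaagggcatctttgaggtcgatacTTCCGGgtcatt
SSRP1: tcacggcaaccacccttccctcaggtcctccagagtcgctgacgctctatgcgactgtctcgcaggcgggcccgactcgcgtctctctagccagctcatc
AFF4: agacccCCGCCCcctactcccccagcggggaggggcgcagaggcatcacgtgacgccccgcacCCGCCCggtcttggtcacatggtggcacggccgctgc
ELOB held 3 GC boxes in a stretch of 86% G and C, and AFF4 held 2 in a stretch of 75%. SUPT16H held 2 ETS motifs in a stretch of 42% G and C, and SSRP1 held neither motif in a stretch of 64%.

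Over the 250 bases before the start, searched on both strands, 29 of the 33 genes had an entry, and CDC73, ELL2, ELOC and TCEA1 had none. The GC box was found before 24 of the 29, against 42.6% of all 35116 promoters in the same table. The ETS motif was found before 13 of the 29, against 14.5% of all promoters. Of the 5 genes called higher that had an entry, 4 held a GC box and 1 an ETS motif (SKIC8), and of the 4 called lower, 3 held a GC box and 3 an ETS motif (CTR9, SUPT16H and SUPT6H). The NRF1 motif GCGCATGC lay before 4 of the 29 and 2.63% of all promoters, the CRE core TGACGT before 5 and 7.1%, CCAAT before 9 and 32%, and TATAAA before HEXIM1 alone and 10.7%. The 5 genes with several annotated starts counted as holding a motif if any start did, so the shares of genes and of promoters are not on quite the same footing. The share over all promoters takes every entry, with no restriction to expressed genes, so it is no matched background. A match of letters describes the sequence and shows no binding.

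Of the pausing factors, SUPT5H, the large subunit of DSIF and a close companion of Pol II throughout the gene, was among the most abundant transcripts of the list. It gave 469 and 478 CPM in T4A and 469 and 459 CPM in WT, with a log2 fold change of 0.03 and a 95% interval from −0.05 to 0.11. The sign turned to −0.05 with library totals, and SUPT5H was called higher with upper quartile scaling and with the length trend removed (log2 fold change 0.22 in the latter). SUPT4H1, its small partner, was not tested: it had only 5 counts in each T4A library, against 2 and 3 in WT. Of its annotated exonic bases 89.9% are shared with another gene, and how fragments that fit 2 genes were counted was not examined, so the low count says little of its expression.

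NELF binds DSIF and Pol II and holds the paused polymerase. Its subunit B (NELFB, ENSG00000188986.9, chromosome 9, 137255327 to 137273542) was higher in T4A cells, at 133 and 115 CPM against 102 and 105 CPM in WT. The groups did not overlap, and the T4A libraries lay further from each other than the WT libraries did. The log2 fold change was 0.26 ± 0.07 (SE; edgeR adjusted p = 0.00540), and the call was lost without T4A replicate 1 (log2 fold change 0.15) and with the length trend removed (0.10). NELFA gave 13.2 and 9.83 CPM in T4A and 12.5 and 13.5 CPM in WT, which overlap, with a log2 fold change of −0.16 (95% interval −0.50 to 0.17). NELFCD was counted 6 and 8 times in T4A against 9 and 7 times in WT, with 97.4% of its exonic bases shared with a neighbouring gene. NELFE had 0 and 1 counts in each group, although only 3.85% of its exonic bases are shared. How fragments with several alignments were treated is not stated, so the low counts say little of the expression of either gene. Neither was tested.

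None of the 3 genes of the 7SK snRNP was called by edgeR, beside 23.6% of all genes. A count over 3 genes shows nothing particular to the complex. HEXIM1, which inhibits P-TEFb when bound to 7SK RNA, was well measured, at 160.04 and 163 CPM in T4A and 156 and 159 CPM in WT. Its log2 fold change was 0.04 with a 95% interval from −0.07 to 0.14. LARP7, which holds the 7SK RNA, stood at 9.78 and 7.92 CPM in T4A and 8.88 and 9.56 CPM in WT, and MEPCE, its capping enzyme, at 5.07 and 3.61 CPM against 4.23 and 5.70 CPM. The groups overlapped for both genes, and their log2 fold changes of −0.05 and −0.18 had 95% intervals from −0.42 to 0.31 and from −0.72 to 0.35. Both rows of the 7SK RNA itself, which has no poly(A) tail, held 0 counts in every library, so the RNA partner was not measured.

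The super elongation complex brings P-TEFb to genes, with AFF1 or AFF4 as scaffold. AFF4 (ENSG00000072364.13, chromosome 5, 132875395 to 132963634) gave 19.4 and 18.0 CPM in T4A and 28.9 and 27.8 CPM in WT. Both T4A libraries were below both WT libraries, with a log2 fold change of −0.60 ± 0.10 (SE; edgeR adjusted p = 0.000219), or 1.51-fold lower. AFF1 gave 6.74 and 6.49 CPM in T4A and 9.30 and 9.25 CPM in WT, also without overlap. Its log2 fold change of −0.49 ± 0.18 missed the threshold (edgeR adjusted p = 0.0557), and it was called lower with library totals.

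MLLT1, which encodes ENL, a YEATS-domain reader of acetylated and crotonylated histones, was called in the other direction. It stood at 50.3 and 55.4 CPM in T4A and at 44.1 and 42.6 CPM in WT (ENSG00000130382.9, chromosome 19, 6210381 to 6279975). Both T4A libraries were higher, with a log2 fold change of 0.28 ± 0.08 (SE; edgeR adjusted p = 0.0157). The call was lost without T4A replicate 2 (log2 fold change 0.21), without WT replicate 2 (0.26) and with library totals (0.21). MLLT3, its close relative AF9, gave 4.19 and 6.80 CPM in T4A and 5.49 and 7.50 CPM in WT, which overlap, with a log2 fold change of −0.24 (95% interval −0.76 to 0.27).

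The elongation factors ELL, ELL2 and ELL3, which raise the rate of Pol II and share a fold, were not called. ELL stood at 10.5 and 8.93 CPM in T4A and 7.25 and 9.37 CPM in WT, and ELL2 at 8.55 and 9.99 against 9.60 and 8.75 CPM. The groups overlapped in both, and the log2 fold changes were 0.24 and 0.01. ELL3 was barely detected, at 18 and 11 counts in T4A against 11 and 33 in WT. EAF1, a binding partner of the ELL proteins, gave 13.5 and 12.4 CPM in T4A and 15.1 and 16.5 CPM in WT. Its groups did not overlap, but the log2 fold change of −0.28 ± 0.13 was not called (edgeR adjusted p = 0.137). Over the 8 genes of the super elongation complex the median was −0.22, and it ran from −0.39 without WT replicate 1 to −0.03 without WT replicate 2. By edgeR 1 of the 8 was called higher and 1 lower, 25% in either direction, near the 23.6% of all genes.

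All 6 PAF1 complex genes had groups that did not overlap, in both directions, where 59.0% of all genes had such groups, and 2 of the 6 were called by edgeR, against 23.6% of all genes. CTR9 (ENSG00000198730.9, chromosome 11, 10751246 to 10779746), the scaffold of the complex, gave 44.4 and 46.7 CPM in T4A and 56.4 and 56.6 CPM in WT. It was lower in both T4A libraries, with a log2 fold change of −0.31 ± 0.08 (SE; edgeR adjusted p = 0.00612). SKIC8 (ENSG00000140395.9, chromosome 15, 78283235 to 78299609), whose protein WDR61 also belongs to the cytoplasmic SKI complex that feeds RNA to the exosome, gave 85.9 and 85.7 CPM in T4A and 73.9 and 74.2 CPM in WT. It was higher in both T4A libraries, with a log2 fold change of 0.21 ± 0.06 (edgeR adjusted p = 0.0210). The change was small, and the call was lost without T4A replicate 2, without WT replicate 1, without WT replicate 2, with library totals (log2 fold change 0.14) and without the filter on low counts.

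CDC73, the parafibromin subunit, gave 19.3 and 20.4 CPM in T4A and 23.3 and 25.5 CPM in WT, a log2 fold change of −0.30 ± 0.11 that missed the threshold narrowly (edgeR adjusted p = 0.0520). It was called lower without T4A replicate 2, with library totals, with a filter of 1 CPM and with a replicate block. RTF1, which promotes ubiquitylation of histone H2B, stood at 17.3 and 16.6 CPM against 21.6 and 18.5 CPM, and PAF1 at 11.3 and 11.4 CPM against 13.0 and 11.7 CPM. Both lay lower in T4A without a call, at log2 fold changes of −0.24 and −0.12. LEO1, the rarest of the 6 transcripts at 2.16 and 2.50 CPM in T4A and 1.85 and 1.72 CPM in WT, had a log2 fold change of 0.38 with a 95% interval from −0.38 to 1.14. The median of the 6 was −0.18.

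**Figure D2:**
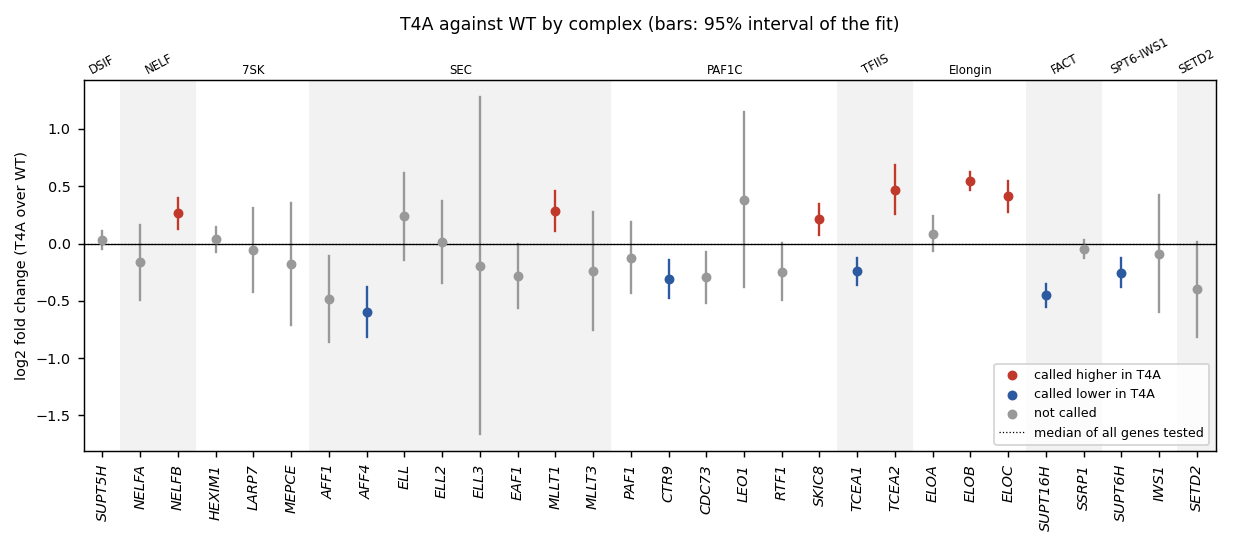
The log2 fold change, T4A over WT, for 30 tested elongation factor genes by complex, with the 95% interval of the edgeR fit as bars and the median of all genes, −0.01, as a dotted line. The 6 genes called higher (red) and 5 called lower (blue) are spread over 7 of the 10 complexes, and in 4 of these complexes (super elongation complex, PAF1 complex, TFIIS and Elongin) more than 1 gene was called.

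The TFIIS genes, whose proteins let arrested Pol II cleave its transcript and resume, were called in opposite directions. TCEA1 (ENSG00000187735.16, chromosome 8, 53966556 to 54022448), the general form, gave 136 and 122 CPM in T4A and 154 and 152 CPM in WT. It was lower in both T4A libraries, with a log2 fold change of −0.24 ± 0.06 (SE; edgeR adjusted p = 0.00362), and the call was lost without T4A replicate 2 (−0.17) and with upper quartile scaling (−0.16). TCEA2 (ENSG00000171703.17, chromosome 20, 64055596 to 64072347), a form known for its expression in testis, gave 33.5 and 35.2 CPM in T4A and 26.7 and 22.8 CPM in WT. It was higher in both T4A libraries, with a log2 fold change of 0.47 ± 0.10 (edgeR adjusted p = 0.00170), and lost the call without WT replicate 2 (0.36). Pseudogenes named for TCEA1 carried 2.31% of its counts.

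SPT6, the histone chaperone that binds the linker of the Pol II CTD, is encoded by SUPT6H (ENSG00000109111.15, chromosome 17, 28662205 to 28702679). It gave 130.2 and 128 CPM in T4A and 163 and 144 CPM in WT. Both T4A libraries were lower, with a log2 fold change of −0.25 ± 0.06 (SE; edgeR adjusted p = 0.00357). The call was lost without WT replicate 1 (−0.16) and with the length trend removed (−0.01). IWS1, which binds SPT6, gave 3.92 and 4.36 CPM in T4A and 4.23 and 4.57 CPM in WT, which overlap. SETD2 gave 8.64 and 5.74 CPM in T4A and 9.96 and 9.10 CPM in WT, a log2 fold change of −0.40 ± 0.20 that was not called (edgeR adjusted p = 0.164). The value rested on which T4A library was kept: it was −0.73, and called lower, without T4A replicate 1 and −0.15, without a call, without T4A replicate 2. With the length trend removed it was −0.12. The 5 genes that act on chromatin (SUPT16H, SSRP1, SUPT6H, IWS1 and SETD2) all had negative log2 fold changes, except that SSRP1 crossed 0 with upper quartile scaling and with the length trend removed. Of the 5, 2 were called lower and 0 higher by the edgeR test, against 13.0% and 10.7% of all genes, and 9164 of the 18139 genes tested had a negative value. Counts over so few genes show nothing particular to them.

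Partners of a complex, or 2 forms of a factor, are counted in the same library, so their ratio of raw counts does not depend on scaling. The pairs were chosen after the values were seen, so the ratios are given as a description with no test, and 2 against 2 libraries cannot go below p = 0.333 in an exact permutation test. The ratio of SUPT16H to SSRP1 counts was 0.444 and 0.475 in T4A and 0.590 and 0.627 in WT. The ratio of ELOB to ELOA counts was 8.48 and 8.56 in T4A and 6.03 and 6.41 in WT, and that of ELOC to ELOA 1.37 and 1.39 against 1.09 and 1.11. Neither set of ratios overlapped between the groups.

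For pairs with calls in opposite directions the groups have to separate, so their ratios only give the size. TCEA2 and TCEA1 encode 2 forms of TFIIS and not partner subunits. The ratio of TCEA2 to TCEA1 counts was 0.247 and 0.288 in T4A and 0.174 and 0.150 in WT. The mean ratio was thus 1.65-fold higher in T4A. For SKIC8 over CTR9 the ratio was 1.93 and 1.84 in T4A and 1.309 and 1.311 in WT, and for MLLT1 over AFF4 it was 2.60 and 3.09 against 1.529 and 1.534. For NELFB over NELFA the ratio was 10.04 and 11.7 in T4A and 8.15 and 7.78 in WT. The ratio of SUPT6H to IWS1 counts, at 33.2 and 29.3 in T4A and 38.4 and 31.6 in WT, overlapped. Within the PAF1 complex, the ratio of CDC73 to CTR9 counts was 0.4355 and 0.4357 in T4A and 0.413 and 0.4497 in WT, which also overlap.

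**Figure D3:**
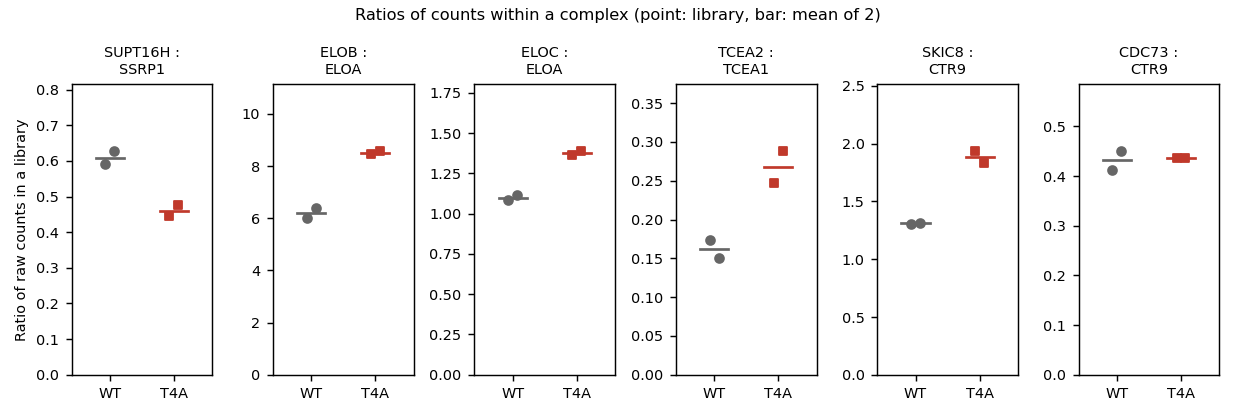
Ratio of raw counts of 2 genes in each library, which are partners of a complex except for TCEA2 and TCEA1, 2 forms of TFIIS. The axis is linear from 0, with circles for WT, squares for T4A and a bar at the mean of the 2 libraries. T4A and WT libraries separate for SUPT16H over SSRP1, ELOB over ELOA, ELOC over ELOA, TCEA2 over TCEA1 and SKIC8 over CTR9, while CDC73 over CTR9 overlaps.

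Per length, as CPM per kilobase of annotated exon, the most abundant transcripts of the list in WT cells were ELOB at 71.3, SSRP1 at 65.9, SUPT5H at 54.2, HEXIM1 at 43.5, NELFB at 40.7, SUPT16H at 36.8 and TCEA1 at 35.5. In T4A cells the same scale gave 104 for ELOB, 63.7 for SSRP1, 55.2 for SUPT5H, 48.8 for NELFB, 44.6 for HEXIM1, 30.0 for TCEA1 and 26.9 for SUPT16H. NELFB and HEXIM1 thus changed places, as did TCEA1 and SUPT16H. On the same scale the scaffold genes of the super elongation complex stood at 2.51 in WT and 1.66 in T4A for AFF4 and at 0.847 and 0.604 for AFF1. The exonic length joins every annotated isoform, so it exceeds that of a single mRNA, and for ELOB it covers 5714 of the 5876 bases of the gene.

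Fold changes moved with transcript length in the whole table, and over the 30 elongation factors the correlation had the same sign. Across the 30 genes, log2 fold change and log2 exonic length had a Pearson r of −0.378 and a Spearman rho of −0.413. Across all 18047 tested genes with a length, r was −0.251 and rho −0.347. These are descriptions over genes that share 4 libraries. For GC content of the transcript, r was 0.354 over the 30 genes and 0.199 over all genes. ELOC and SKIC8 were called higher at 9275 and 7188 exonic bases, above the 5742-base median of the 30. TCEA1 was called lower at 4310, below it. These lengths join every annotated isoform, so they exceed that of a single mRNA, and removal of the trend used the same lengths. The longest annotated transcript has 1 exon for SKIC8 and 3 exons for ELOC, and which isoforms were expressed was not measured. With the trend over all genes removed, ELOB had a log2 fold change of 0.62, ELOC of 0.63, SUPT16H of −0.32, AFF4 of −0.35 and CTR9 of −0.23, all called by edgeR, while SUPT6H and NELFB lost their calls.

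**Figure D4:**
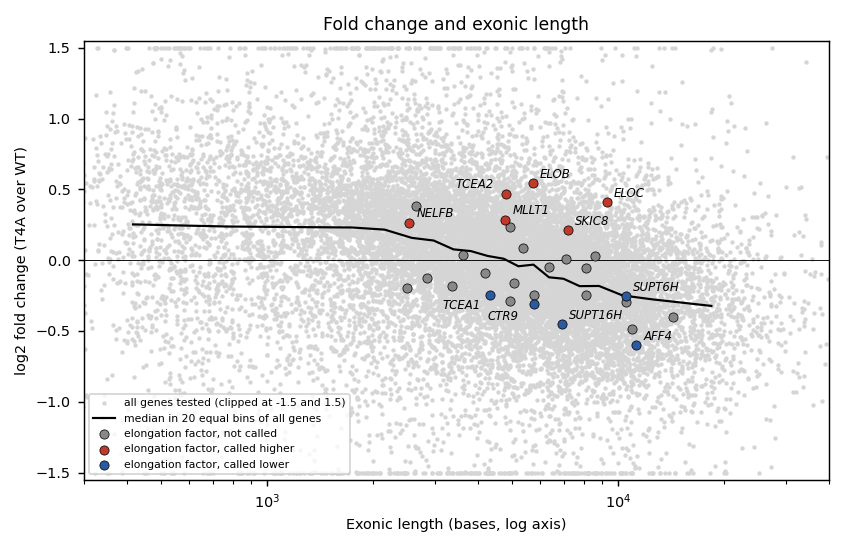
Log2 fold change (T4A over WT) against exonic length in bases on a log axis for all tested genes with a length (grey, clipped at 1.5 in either direction), with the median in 20 equal bins as a line and the elongation factors as larger points. The median line falls from positive to negative with length, and ELOB, ELOC, TCEA2 and SKIC8 lie above it while SUPT16H, AFF4, CTR9 and TCEA1 lie below it.

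Genes whose annotation overlaps that of another gene, on either strand, have uncertain counts. In 8 of the 33 genes over 10% of the exonic bases are shared with another gene (SUPT4H1, NELFCD, HEXIM1, LARP7, MEPCE, ELL3, EAF1 and ELOA). Of these, 6 were tested and 0 called by edgeR, beside 23.6% of all genes, and LARP7, MEPCE, ELL3 and EAF1 among them lay under 20 CPM. None of the 6 was called by DESeq2 or limma-voom either, and EAF1 alone had an unadjusted p under 0.05. The 11 calls lie among the 24 tested genes with less sharing.

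The calls were repeated under 14 alternatives, which were other scalings, filters, tools, a replicate block, a length correction and each library left out. ELOB, ELOC, SUPT16H, AFF4 and CTR9 were called in every one of the 14, the 4 fits that leave out a library among them. TCEA2 was called in 13, TCEA1 in 12, NELFB, MLLT1 and SUPT6H in 11 each and SKIC8 in 9. No called gene changed sign. Without WT replicate 2 the genes called higher fell from 6 to 3, because MLLT1, TCEA2 and SKIC8 were not called there.

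**Figure D5:**
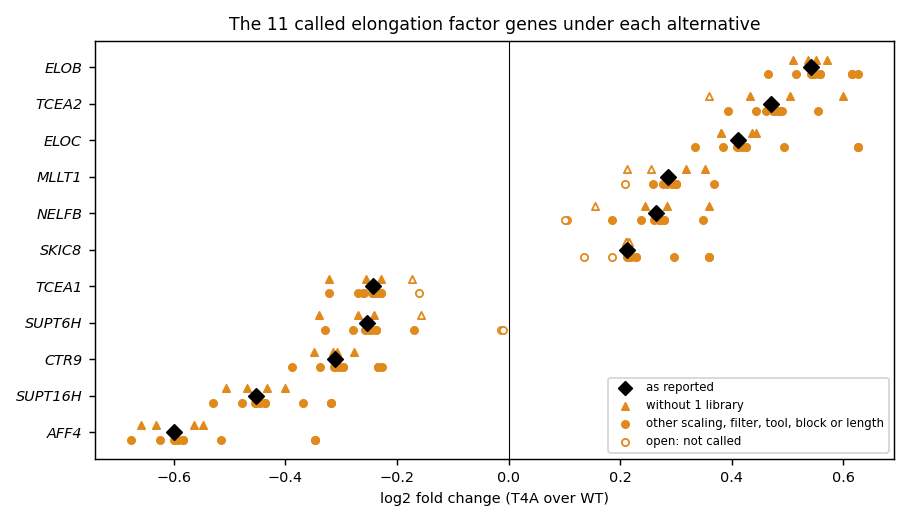
The log2 fold change, T4A over WT, for 11 called elongation factor genes as reported (diamond), without 1 library (triangles) and under other scalings, filters, tools, block and length correction (circles), with open symbols where the gene was not called. All symbols of a gene lie on one side of 0, and ELOB, ELOC, CTR9, SUPT16H and AFF4 have filled symbols only.

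Of 29 other elongation genes listed for comparison, 25 were tested, 1 was called higher and 3 lower, with a median log2 fold change of −0.16. That is 16% called, below the 23.6% of all genes. Those that were lower included subunits of the kinases of the elongating polymerase. CCNT1, the cyclin T1 subunit of P-TEFb, gave 10.0 and 9.83 CPM in T4A and 17.4 and 16.98 CPM in WT, a log2 fold change of −0.79 ± 0.14 (SE; edgeR adjusted p = 0.000188). CDK13, a kinase of CTD Ser2, gave 6.26 and 5.48 CPM in T4A and 12.0 and 9.84 CPM in WT (log2 fold change −0.90 ± 0.18, edgeR adjusted p = 0.00113). For both genes the T4A libraries lay below the WT libraries.

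BRD2, a bromodomain protein that binds acetylated histones, was called higher at 9.47 and 10.7 CPM in T4A and 7.75 and 4.02 CPM in WT (log2 fold change 0.76 ± 0.23, edgeR adjusted p = 0.0223). The WT libraries differed widely, and without WT replicate 2 the log2 fold change was 0.38 and the gene was not called. CDK9, the kinase partner of CCNT1, gave 12.6 and 12.3 CPM in T4A and 14.6 and 13.4 CPM in WT, with a log2 fold change of −0.16 and no call. The ratio of CDK9 to CCNT1 counts was therefore 1.26 and 1.25 in T4A and 0.839 and 0.786 in WT. CCNT2, the other cyclin of P-TEFb, gave 6.21 and 4.25 CPM against 7.22 and 7.22 CPM, a log2 fold change of −0.46 that was not called (edgeR adjusted p = 0.150).

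Of the paralogs of the elongation factors, HEXIM2, TCEA3 and ELOA2 had at most 22 counts in a library and were not tested. AFF2, AFF3 and EAF2 were tested and not called. Their log2 fold changes were −0.33 for AFF2 (10.3 ± 0.552 CPM in T4A, 13.0 ± 1.29 CPM in WT; SD, n = 2), −0.31 for AFF3 (3.71 ± 0.429 and 4.59 ± 0.755 CPM) and −0.44 for EAF2 (1.12 ± 0.227 and 1.53 ± 0.217 CPM). The 4 AFF genes measured thus had negative log2 fold changes, AFF4 with a call and AFF1, AFF2 and AFF3 without. The sign held under the other scalings and with the length trend removed (AFF3 at −0.02 in the latter). Negative values were common, in 9164 of the 18139 genes tested and in 19 of the 25 other elongation genes tested. A shared sign over 4 genes shows nothing particular to them. Their exonic lengths ran from 10953 to 15701 bases, and a part of length in the shared sign was not tested.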

How the data were processed

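Poly(A) RNA-seq counts of 2 T4A and 2 WT libraries were used. Libraries were made with the NEBNext Ultra RNA kit, and the submitters' processing notes name Trimmomatic 0.38, HISAT2 2.2.1 and featureCounts 2.0.1 with build hg38. Alignment did not use strand. The authors deposited unnormalized counts of fragments for each gene, 1 table per library. The treatment of fragments with several alignments is not stated in these sources. Counts were filtered with filterByExpr and compared in edgeR 4.0.16 (R 4.3.3) with TMM, glmQLFit and glmQLFTest, with Benjamini-Hochberg adjustment over 18139 genes (common biological coefficient of variation 0.114). The SE is the log2 fold change over the square root of F. Alternatives used limma 3.58.1 and DESeq2 1.42.0, and the steps were tested on simulated data. Symbols, lengths and overlaps came from GENCODE 44, lifted to another build, and printed positions and promoters from RefSeq on GRCh38. Replicates differed beyond sampling noise (chi-square per degree of freedom 4.56 in T4A and 5.66 in WT).

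The members and lists were chosen with earlier results of these data known. All 33 genes are named, called ones with full statistics, and of the other elongation genes those called, paralogs, and the P-TEFb subunits. One gene that this rule takes is not reported here.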

Additional observations from a re-analysis of the deposited data

How the results depend on the processing

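The cause of each shift below was not tested. The median log2 fold change of the elongation factors was −0.022 with upper quartile scaling, −0.18 with library totals, and −0.043 with the length trend removed, with or without a replicate block. Library totals gave 8 of them lower. For Elongin the medians were 0.49 with upper quartile scaling, 0.33 with library totals and 0.62 with the length trend removed (0.62 with the block). For FACT they were −0.17, −0.33 and −0.13 (−0.13 with the block), for SPT6 with IWS1 −0.087, −0.25 and −0.063 (−0.063), and for DSIF, which is SUPT5H alone, 0.11, −0.0498 and 0.22 (0.22). The PAF1 complex median was −0.10 with upper quartile scaling. Of the other elongation genes, 2 were higher with upper quartile scaling and with the length trend removed (2 with the block), and 6 were lower with library totals. Their median was −0.081, −0.24 and −0.016 in that order (−0.013 with the block). Over all genes 1432 were lower with the length trend removed.

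With 1 library left out, the lone library of its group is assumed to vary like the other group. Elongation factors called higher then numbered 3 to 5 and those called lower 4 to 6, with medians from −0.11 to −0.024. The median ran from −0.39 to −0.034 in the super elongation complex and from −0.22 to −0.079 in the PAF1 complex. The other elongation genes called higher numbered 0 to 1 and those called lower 3 to 6, with medians from −0.19 to −0.092. Same-numbered libraries did not deviate together over the whole table (correlation −0.0038 over 18139 genes). The labels state no pairing, and with 2 libraries per group a correlation over all genes cannot exclude an effect shared by some. A replicate block gave 2012 genes higher and 2432 lower, with 6 elongation factors called in each direction, the added one being CDC73. Of the 19 elongation factors without a call, 5 gained one under some alternative (SUPT5H, AFF1, CDC73, SSRP1 and SETD2) and 9 crossed 0 under some alternative. The tested elongation factors under 20 CPM had standard errors of 0.12 to 0.70 on the log2 scale, which limits the size of change that could be called in them.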
